A study of Arabidopsis thaliana with 20 samples.

Results

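The genes described here are 8 MYB-like transcription factors and 2 coactivators that belong to the morning side of the Arabidopsis circadian clock: CCA1 (AT2G46830), LHY (AT1G01060), RVE8 (AT3G09600), RVE4 (AT5G02840), RVE6 (AT5G52660), RVE1 (AT5G17300), RVE2 (AT5G37260), RVE7 (AT1G18330), LNK1 (AT5G64170) and LNK2 (AT3G54500). They were taken from the expression table by their identifiers, and all 10 had a row among the 30613 genes and transposable elements left after the spike-ins were set aside. The RNA was chromatin-associated RNA of 10-day-old whole seedlings of the Col-0 background, grown at 21 °C with 16 h of light and 8 h of darkness. The study compared 5 genotypes. In 4 of them human ALKBH5, an enzyme that removes the methyl group from N6-methyladenosine (m6A) in RNA, was overexpressed: del-cIDR, which lacks a disordered region of the protein; FL, the full-length protein; and del-cIDR H204A and FL H204A, the inactive mutant forms of these. The fifth was Col-0 without a transgene. Each genotype had 2 input libraries, which give the expression values, and 2 libraries made from RNA captured with an m6A antibody. The labels name neither the promoter of the transgene nor the number of independent transformants, so the transgene cannot be told apart from other properties of a line. They also do not say whether the 2 libraries of a genotype came from separate cultures, so p-values measure only the spread between these libraries, which may be technical. The hour of harvest is not given in the labels, and its part in any result was not tested.

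CCA1 and LHY are closely related MYB repressors whose transcripts peak around dawn. They bind the evening element, a short promoter motif, and hold down evening-phased genes such as TOC1 and GI until their own levels fall during the day. RVE8, RVE4 and RVE6 belong to the same MYB family but act as activators at the same motif, and they recruit LNK1 and LNK2 as coactivators. RVE1, RVE2 (also CIR1) and RVE7 (also EPR1) form a further branch of the family that mainly carries clock time to outputs, among them auxin synthesis in the case of RVE1.

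Values are the deposited signal, an arbitrary unit that appears scaled to ERCC spike-in RNA, and depth is unknown. Signals were set against each other across genotypes and not between genes, because they are not divided by gene length. Fold changes are on the log2(signal + 6.94) scale from limma, given with the SE, and a gene counts as called when its p, adjusted by the Benjamini-Hochberg method across the 30613 features, is under 0.05. These p-values lean on the spread of features of like signal (47.3 prior against 5 residual degrees of freedom), and in the centred fit on that spread alone. On this scale the median log2 fold change against Col-0 over all features was 0.56 in del-cIDR, 0.67 in FL, 0.31 in del-cIDR H204A and 0.22 in FL H204A. The median feature rose without a like rise in the summed signal of all features. That sum was 33267800 and 34382900 in Col-0 and 34314300 and 33527700 in FL, and ran from 32502100 to 36761000 over the 10 libraries. The signal of the median feature was 54.2 and 51.0 in Col-0 and 100 and 99.3 in FL. Each value below is therefore followed, where it matters, by the value after each library was centred on its own median. In whole seedlings a smaller share of cells of one kind and less RNA per cell cannot be told apart. The summed signal of 5 shoot mesophyll markers was 69487 to 70179 in del-cIDR, 35667 to 36192 in FL, 93707 to 94632 in del-cIDR H204A, 36721 to 37583 in FL H204A and 24009 to 24482 in Col-0. These markers are genes such as CAB3 and RBCS1A. A change in the share of mesophyll cells and a change in the regulation of these genes cannot be told apart in this sum. The sum of 5 root markers ran from 7739 to 12929 over the 10 libraries, and of the remaining marker sums that of dividing cells ran from 143 to 384, that of seed genes from 459 to 947, that of guard cells from 653 to 1072 and that of xylem from 163 to 320. Markers above the median feature numbered 5 of 5 for mesophyll, 3 of 5 for root, 2 of 3 for seed and 2 of 3 for dividing cells. For guard cells and xylem they numbered 2 of 2 each. The part of tissue make-up in the results below was not tested.

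CCA1 and LHY were highest in FL and lowest in del-cIDR. The CCA1 signal was 362 and 342 in del-cIDR, 1224 and 1203 in FL, 678 and 656 in del-cIDR H204A, 547 and 608 in FL H204A, and 473 and 460 in Col-0. No genotype overlapped another, and del-cIDR was the only line below Col-0. Against Col-0, CCA1 changed by -0.40 in del-cIDR (SE 0.07, adjusted p = 1.08e-05), 1.37 in FL (adjusted p = 2.2e-22), 0.51 in del-cIDR H204A (adjusted p = 1.14e-07) and 0.30 in FL H204A (adjusted p = 0.00219). After median-centring the del-cIDR and FL changes were -1.02 and 0.52, while those of the H204A lines, 0.13 and 0.01, were no longer called. The FL H204A call was also lost without FL H204A replicate 2 (0.23, adjusted p = 0.0603).

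LHY had signals of 96.0 and 133 in del-cIDR, 750 and 727 in FL, 228 and 219 in del-cIDR H204A, 259 and 300 in FL H204A, and 341 and 336 in Col-0. Again no genotype overlapped another, but here both H204A lines lay below Col-0, where CCA1 lay above it. The changes against Col-0 were -1.52 in del-cIDR (SE 0.11, adjusted p = 2.33e-17), 1.11 in FL (adjusted p = 1.84e-12) and -0.58 in del-cIDR H204A (adjusted p = 1.93e-05). The value in FL H204A, -0.27, did not pass the test (adjusted p = 0.0697), though it passed after median-centring (-0.57, adjusted p = 5.37e-06) and when any of del-cIDR replicate 1, del-cIDR replicate 2 or FL H204A replicate 2 was left out (adjusted p = 0.0376, 0.04 and 0.0392). The FL change shrank to 0.27 after centring (adjusted p = 0.0297).

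**Figure D1:**
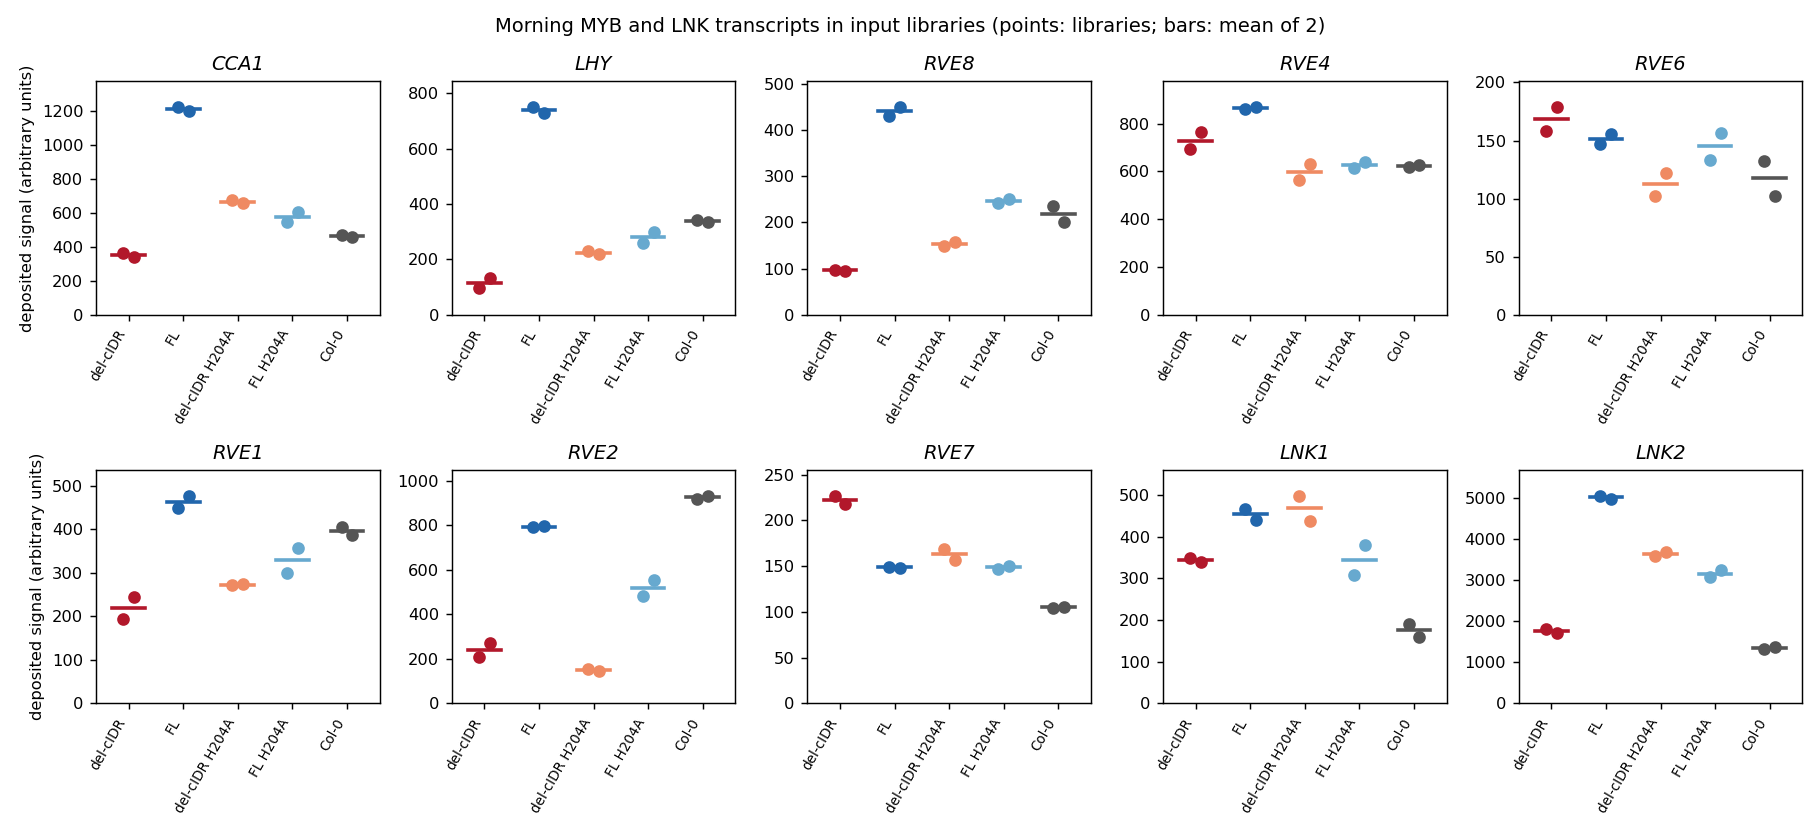
Deposited signal (vertical axes, arbitrary units, starting at 0) of the 10 genes in the input libraries of the 5 genotypes. Points are the 2 libraries of a genotype and the bar is their mean; FL stands highest for CCA1, LHY, RVE8, RVE4, RVE1 and LNK2, and Col-0 highest for RVE2.

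RVE8, the main activator of its branch, followed the order of the dawn repressors at the ends: highest in FL and lowest in del-cIDR. Its signal was 97.1 and 94.9 in del-cIDR, 431 and 450 in FL, 150 and 157 in del-cIDR H204A, 242 and 250 in FL H204A, and 235 and 200 in Col-0. The highest genotype mean was 4.59 times the lowest, and no genotype overlapped another. Against Col-0 the change was -1.12 in del-cIDR (SE 0.12, adjusted p = 1.13e-11), 1.00 in FL (adjusted p = 3.31e-10), -0.48 in del-cIDR H204A (adjusted p = 0.000732) and 0.18 in FL H204A (adjusted p = 0.286). Relative to the median feature the del-cIDR change was -1.73, while the FL value of 0.16 was not called (adjusted p = 0.28) and the FL H204A value turned to -0.12.

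RVE4 and RVE6, which share the activator role with RVE8, varied far less. RVE4 had 694 and 763 in del-cIDR, 862 and 869 in FL, 566 and 631 in del-cIDR H204A, 612 and 640 in FL H204A, and 620 and 627 in Col-0. FL and del-cIDR stood above the other 3 genotypes, which overlapped in part. The changes against Col-0 were 0.22 in del-cIDR (SE 0.07, adjusted p = 0.00749) and 0.47 in FL (adjusted p = 2.24e-07), but after median-centring these turned to -0.39 and -0.37, below the median feature. The del-cIDR call was lost without del-cIDR replicate 2 (0.15, adjusted p = 0.151).

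RVE6 had 158 and 179 in del-cIDR, 147 and 156 in FL, 102 and 122 in del-cIDR H204A, 134 and 156 in FL H204A, and 132 and 103 in Col-0. Its 2 libraries differed by up to 25.2% of their mean, and FL overlapped FL H204A as Col-0 overlapped del-cIDR H204A. RVE6 was called higher than Col-0 in del-cIDR (0.51, SE 0.15, adjusted p = 0.00325) and FL (0.36, adjusted p = 0.0275), with centred values of -0.11 and -0.48. Without Col-0 replicate 2 these were 0.33 (adjusted p = 0.11) and 0.19 (adjusted p = 0.354); the first call was also lost without del-cIDR replicate 2 (adjusted p = 0.0533), and the second without FL replicate 1 or 2 (adjusted p = 0.0557 and 0.13).

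In the third branch, RVE1, RVE2 and RVE7 each took a different order over the genotypes. RVE1, which promotes expression of the auxin synthesis gene YUC8, had 194 and 245 in del-cIDR, 450 and 477 in FL, 271 and 274 in del-cIDR H204A, 300 and 357 in FL H204A, and 405 and 387 in Col-0. FL was above Col-0 and the other lines below it, with no overlap. RVE1 fell in del-cIDR (-0.84, SE 0.10, adjusted p = 7.39e-10) and in del-cIDR H204A (-0.53, adjusted p = 2.79e-05), and its FL H204A value was -0.27 (adjusted p = 0.0523). It was called higher in FL (0.22, adjusted p = 0.0429), a call lost when any one FL or Col-0 library was left out: without FL replicate 1 or 2 the values were 0.27 and 0.18 (adjusted p = 0.0618 and 0.205), and without Col-0 replicate 1 or 2 they were 0.26 and 0.19 (adjusted p = 0.0691 and 0.182). After centring the FL value turned to -0.62. The FL H204A value passed the test without del-cIDR replicate 1 or 2 (adjusted p = 0.0368 and 0.0384) and without FL H204A replicate 2 (-0.39, adjusted p = 0.0145).

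RVE2 was the one member of the 10 with its highest signal in Col-0. It had 207 and 272 in del-cIDR, 790 and 797 in FL, 154 and 143 in del-cIDR H204A, 480 and 555 in FL H204A, and 917 and 933 in Col-0, with no overlap between genotypes. It fell by 1.93 in del-cIDR on the log2 scale (SE 0.09, adjusted p = 1.42e-24), by 2.58 in del-cIDR H204A (adjusted p = 2.46e-30) and by 0.83 in FL H204A (adjusted p = 2.85e-10). In FL the change was -0.22 (adjusted p = 0.0314). That call did not hold without FL replicate 1 or 2 (adjusted p = 0.105 and 0.0903) or without Col-0 replicate 1 or 2 (adjusted p = 0.0804 and 0.124). All 4 changes stayed negative after centring, at -2.55, -1.06, -2.96 and -1.13 in del-cIDR, FL, del-cIDR H204A and FL H204A.

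RVE7 ran the other way, with Col-0 lowest. Its signal was 227 and 217 in del-cIDR, 149 and 148 in FL, 169 and 157 in del-cIDR H204A, 147 and 150 in FL H204A, and 105 and 106 in Col-0. All 8 transgenic libraries were above both Col-0 libraries, and FL and FL H204A overlapped. The changes against Col-0 were 1.03 in del-cIDR (SE 0.13, adjusted p = 4.13e-09), 0.47 in FL (adjusted p = 0.00157), 0.60 in del-cIDR H204A (adjusted p = 0.000225) and 0.47 in FL H204A (adjusted p = 0.0076). After centring, the del-cIDR change kept its direction and call (0.42, adjusted p = 0.0104), the FL change turned to -0.37 (adjusted p = 0.0156), and the H204A values of 0.22 and 0.18 were not called.

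Both coactivators were above Col-0 in all 4 lines. LNK1 had 349 and 339 in del-cIDR, 467 and 439 in FL, 498 and 437 in del-cIDR H204A, 307 and 379 in FL H204A, and 191 and 159 in Col-0. The transgenic libraries lay wholly above Col-0, while del-cIDR H204A overlapped FL, and del-cIDR overlapped FL H204A. LNK1 rose by 0.95 in del-cIDR (SE 0.10, adjusted p = 1.58e-11), 1.34 in FL (adjusted p = 1.03e-16), 1.38 in del-cIDR H204A (adjusted p = 3.16e-17) and 0.94 in FL H204A (adjusted p = 7.01e-11). After centring it was still called higher in all 4 lines, by 0.34, 0.50, 1.00 and 0.65 in the same order of lines.

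LNK2 had 1821 and 1723 in del-cIDR, 5067 and 4986 in FL, 3605 and 3688 in del-cIDR H204A, 3084 and 3244 in FL H204A, and 1337 and 1371 in Col-0. No genotype overlapped another, and the libraries of a genotype differed by at most 5.51% of their mean. LNK2 rose by 1.89 in FL (SE 0.05, adjusted p = 1.65e-37), 1.42 in del-cIDR H204A (adjusted p = 8.03e-32) and 1.22 in FL H204A (adjusted p = 2.41e-28), with centred changes of 1.05, 1.05 and 0.93. In del-cIDR it rose by 0.39 on the deposited scale (adjusted p = 1.48e-09) but was lower than Col-0 after centring (-0.23, adjusted p = 0.00941).

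LNK1, LNK2 and RVE1 each overlap another annotated gene in the RefSeq gene table. The labels describe a stranded kit but do not say whether reads were counted by strand, so reads of these genes and of their neighbours may be mixed. The neighbour of LNK1, AT5G64160, had 71.2 to 117 over the 10 libraries, and a neighbour of LNK2, AT3G54490, had at most 16.6. LNK2 also overlaps the non-coding RNA gene AT3G08405, and RVE1 overlaps AT5G17305. Signals of these were not read here. Of the listed genes named below, LNK3, LNK4, RVE3, RVE5, ELF3, LUX, FKF1 and CBF3 also overlap another annotated gene. The same limit holds for them.

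Of the family members outside the 10, 4 of the 5 listed had a row, and the fifth was not analysed here. LNK3 had 399 and 410 in del-cIDR, 636 and 639 in FL, 493 and 494 in del-cIDR H204A, 404 and 481 in FL H204A, and 182 and 180 in Col-0. LNK4 ran from 505 to 754 in the transgenic libraries, against 302 and 311 in Col-0. Both were called higher than Col-0 in all 4 lines, by 0.80 to 1.78, the direction of LNK1 and LNK2 on the deposited scale, though LNK4 in del-cIDR was not called after centring (0.18, adjusted p = 0.134). RVE5, of the RVE8 branch, was called only in FL (0.54), where its value turned to -0.31 after centring. Its values in del-cIDR, del-cIDR H204A and FL H204A were 0.20, -0.08 and 0.18. RVE3 was called higher in del-cIDR, FL and del-cIDR H204A (0.97, 1.47 and 0.97) from signals of at most 56.2, and the del-cIDR value was not called after centring (0.36, adjusted p = 0.309).

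Counted together, the members changed in both directions, while most features called anywhere in the genome were higher in the transgenic lines. The 4 comparisons share the Col-0 libraries. In del-cIDR 5 members were higher (RVE4, RVE6, RVE7, LNK1 and LNK2) and 5 lower (CCA1, LHY, RVE8, RVE1 and RVE2), beside 65.5% of all features called higher and 1.85% called lower. After median-centring 2 were higher (RVE7 and LNK1) and 7 lower, with 8.13% and 21.1% of all features called. In FL 9 members were higher and RVE2 alone was lower, beside 75.5% higher and 1.47% lower over all features, so the share of higher members stands close to that of the genome. After centring 4 members (CCA1, LHY, LNK1 and LNK2) were higher and 5 lower, with 15.7% and 38.9% of all features.

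In del-cIDR H204A 4 members were higher (CCA1, RVE7, LNK1 and LNK2) and 4 lower (LHY, RVE8, RVE1 and RVE2), while 32.4% of all features were called higher and 7.84% lower. After centring LNK1 and LNK2 were higher and 6 members lower, beside 11.2% and 24.7%. In FL H204A 4 members were higher (the same genes as in del-cIDR H204A) and RVE2 was lower, while 16.9% of all features were called higher and 3.12% lower. After centring LNK1 and LNK2 were higher and LHY, RVE1, RVE2 and RVE4 lower, beside 4.99% and 17.8% of all features.

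**Figure D2:**
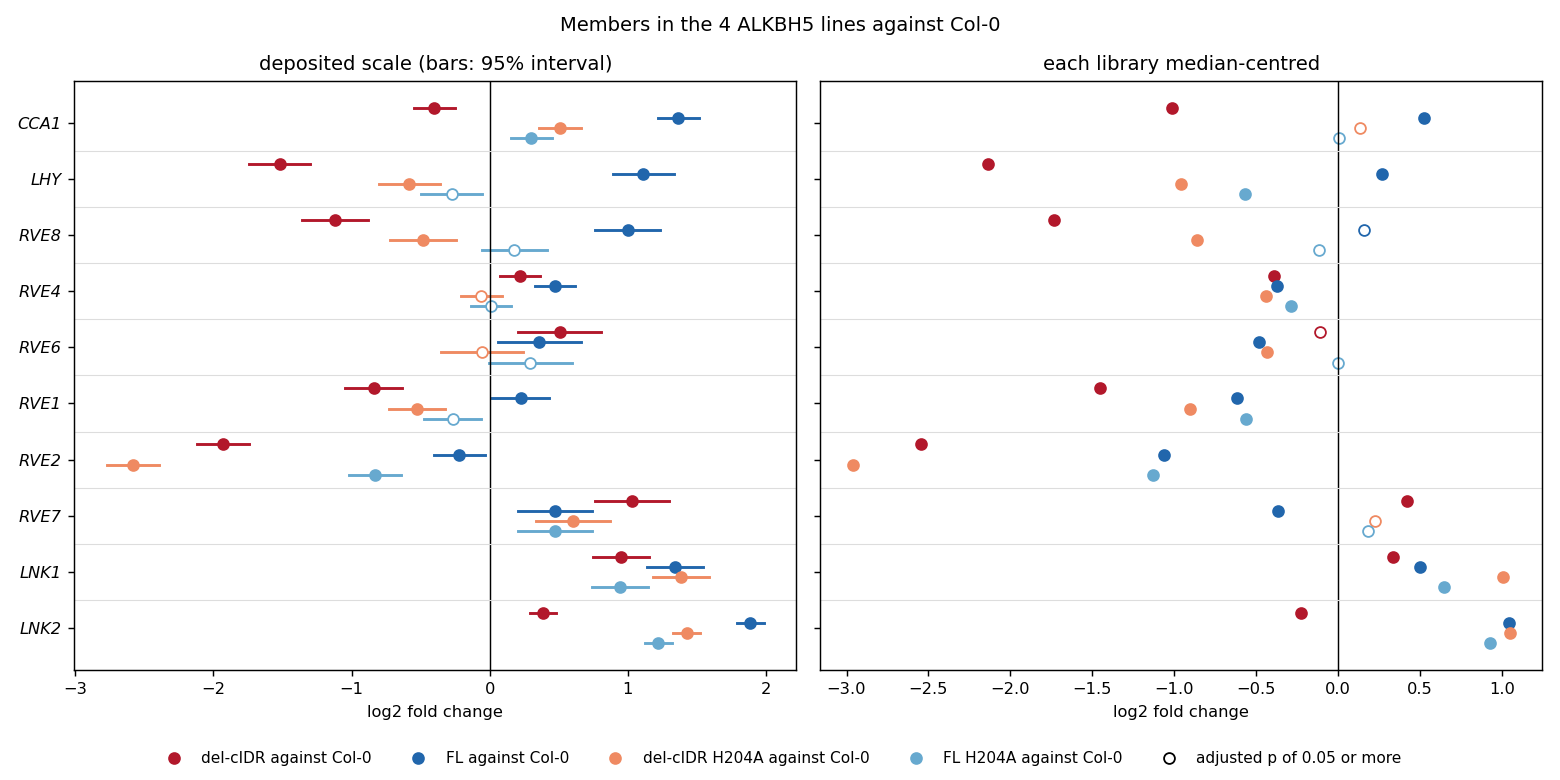
Log2 fold change of the 10 genes in each line against Col-0 (horizontal axes), on the deposited scale with 95% intervals at left and after median-centring at right. Open points did not pass the test; LNK1 lies right of 0 in all 4 lines in both panels and RVE2 left of 0 in all 4.

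Each active form was then set against its H204A form, which differ in the inactivating mutation but are also separate lines, so mutation and line cannot be told apart. The direction of the difference was not the same in both forms for the dawn repressors, RVE8, RVE1 and the coactivators. In del-cIDR against del-cIDR H204A, CCA1 changed by -0.91 (SE 0.07, adjusted p = 6.37e-15), LHY by -0.94 (adjusted p = 5.57e-10), RVE8 by -0.64 (adjusted p = 1.67e-05), LNK1 by -0.43 (adjusted p = 0.000568) and LNK2 by -1.04 (adjusted p = 5.77e-25). RVE1 fell by 0.31 (adjusted p = 0.0136), but not beyond the threshold without del-cIDR replicate 1 (-0.15, adjusted p = 0.336) or del-cIDR H204A replicate 1 or 2 (-0.32 and -0.31, adjusted p = 0.0628 and 0.0788). RVE2 rose by 0.65 (SE 0.09, adjusted p = 1.09e-07). RVE4 (0.28), RVE6 (0.56) and RVE7 (0.43) were also called higher, but none was called after centring, and each lost its call without 1 of 2 libraries. For RVE4 these were del-cIDR replicate 2 (0.21, adjusted p = 0.0846) and del-cIDR H204A replicate 1 (0.20, adjusted p = 0.104). For RVE6 the same libraries gave 0.48 (adjusted p = 0.0544) and 0.44 (adjusted p = 0.0815). For RVE7 they were del-cIDR replicate 1 (0.40, adjusted p = 0.0649) and del-cIDR H204A replicate 2 (0.38, adjusted p = 0.101).

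In all, 4 members were higher and 6 lower in del-cIDR than in del-cIDR H204A, where 28.7% of all features were called higher and 2.76% lower. The same 6 were lower after centring and RVE2 was higher, with 8.39% and 6.99% of all features called. The shift of the median feature in this comparison was 0.27.

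In FL against FL H204A, CCA1 rose by 1.06 (SE 0.07, adjusted p = 1.03e-16) and LHY by 1.38 (SE 0.11, adjusted p = 9.03e-15). RVE8 (0.82), RVE4 (0.46), RVE1 (0.49), RVE2 (0.61), LNK1 (0.40) and LNK2 (0.67) were higher as well, though RVE4, RVE1 and LNK1 turned negative after centring (-0.08, -0.05 and -0.15, none called). The LNK1 call was lost without FL H204A replicate 1 (0.25, adjusted p = 0.0763). RVE6 and RVE7, at 0.06 and 0.00, did not pass. Thus 8 members were higher and by limma 0 were lower, also 0 at an unadjusted p under 0.05, beside 58.1% of all features called higher and 0.751% lower, and a median shift of 0.43. After centring CCA1 (0.52) and LHY (0.84) were the members called higher and RVE6 (-0.48) and RVE7 (-0.55) those called lower, beside 7.44% and 25.8% of all features.

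The active against H204A change in del-cIDR minus that in FL, tested as a contrast of its own, was -1.97 for CCA1 (SE 0.11, adjusted p = 9.56e-22), -2.32 for LHY (SE 0.16, adjusted p = 7.93e-18), -1.46 for RVE8 (adjusted p = 7.89e-10) and -1.71 for LNK2 (adjusted p = 3.38e-27). RVE1 and LNK1 had smaller differences of -0.81 (adjusted p = 2.11e-05) and -0.83 (adjusted p = 1.08e-05). These 6 members were called lower and by limma 0 were called higher (2 at an unadjusted p under 0.05), while 6.15% of all features were called higher and 13.9% lower. The 6 kept their direction and call after centring, where RVE6, RVE7 and RVE2 were called higher, beside 20.8% and 6.9% of all features. For RVE2 the difference on the deposited scale was 0.04 (adjusted p = 0.88), with a 95% interval that runs from -0.23 to 0.30.

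When the active forms were set against each other, 8 members were lower in del-cIDR than in FL: LHY (-2.63, SE 0.11, adjusted p = 6.16e-27), RVE8 (-2.12, SE 0.12, adjusted p = 1.27e-21), CCA1 (-1.77), RVE2 (-1.71), LNK2 (-1.50), RVE1 (-1.06), LNK1 (-0.39) and RVE4 (-0.25). The RVE4 call was lost without del-cIDR replicate 1 (-0.18, adjusted p = 0.156) or FL replicate 2 (-0.24, adjusted p = 0.0547). RVE7 was higher (0.56, adjusted p = 0.000916), and RVE6 did not pass (0.15). Over all features 10.6% were called higher and 20% lower, with a median shift of -0.14. After centring RVE6 and RVE7 were higher and 6 members lower, with RVE4 and LNK1 no longer called, beside 26.4% and 11% of all features.

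**Figure D3:**
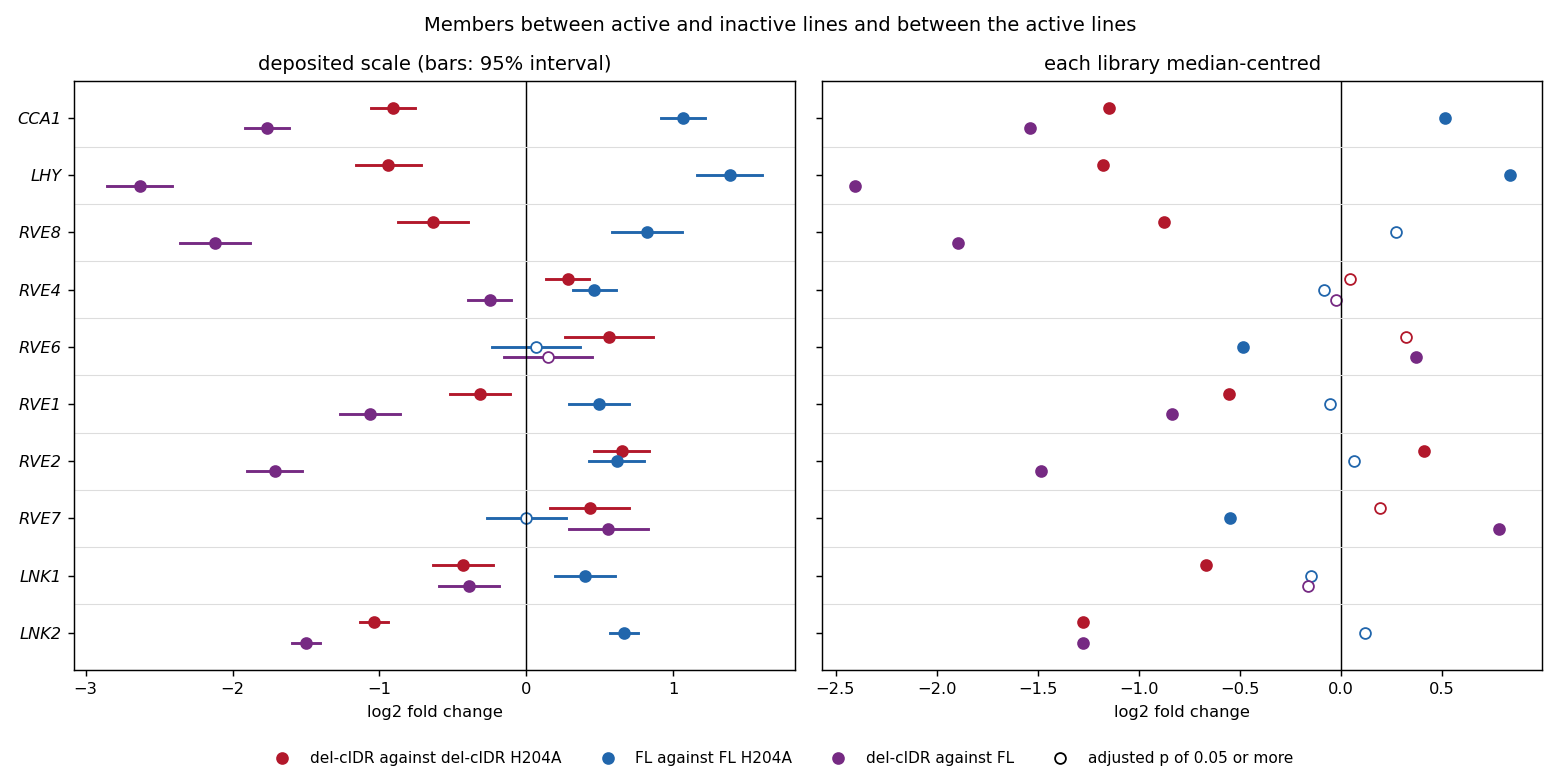
Log2 fold change of the 10 genes (horizontal axes) in del-cIDR against del-cIDR H204A, FL against FL H204A and del-cIDR against FL, with 95% intervals on the deposited scale at left and after median-centring at right. CCA1 and LHY lie left of 0 in the first and last comparison and right of 0 in FL against FL H204A, in both panels.

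Ratios of relatives within a library do not depend on how the library was scaled, and they show that the branches did not move as units. With the Col-0 mean set to 1, the ratio of CCA1 to LHY was 2.73 and 1.86 in del-cIDR, 1.18 and 1.20 in FL, 2.15 and 2.17 in del-cIDR H204A, 1.53 and 1.47 in FL H204A, and 1.01 and 0.993 in Col-0. Every transgenic library thus had less LHY relative to CCA1 than Col-0 had. The ratio of RVE8 to RVE4 was 0.401 and 0.356 in del-cIDR, 1.43 and 1.48 in FL, 0.758 and 0.710 in del-cIDR H204A, 1.13 and 1.12 in FL H204A, and 1.09 and 0.913 in Col-0. FL and del-cIDR lay on opposite sides of Col-0 in this ratio, and the same was seen for RVE8 to RVE6, at 0.329 and 0.285 in del-cIDR against 1.58 and 1.55 in FL.

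The ratio of RVE7 to RVE1 was 4.41 and 3.35 in del-cIDR, 1.25 and 1.17 in FL, 2.35 and 2.16 in del-cIDR H204A, 1.84 and 1.59 in FL H204A, and 0.972 and 1.03 in Col-0. It was above Col-0 in all 8 transgenic libraries and highest in del-cIDR. The ratio of RVE2 to RVE1 was 0.457 and 0.475 in del-cIDR, 0.752 and 0.714 in FL, 0.244 and 0.224 in del-cIDR H204A, 0.685 and 0.664 in FL H204A, and 0.968 and 1.03 in Col-0, below Col-0 in every transgenic library. For LNK2 to LNK1 it was 0.669 and 0.652 in del-cIDR, 1.39 and 1.45 in FL, 0.928 and 1.08 in del-cIDR H204A, 1.29 and 1.097 in FL H204A, and 0.897 and 1.103 in Col-0. These lie below Col-0 in del-cIDR and above it in FL, and overlap it in the H204A lines. No test was made on the ratios.

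**Figure D4:**
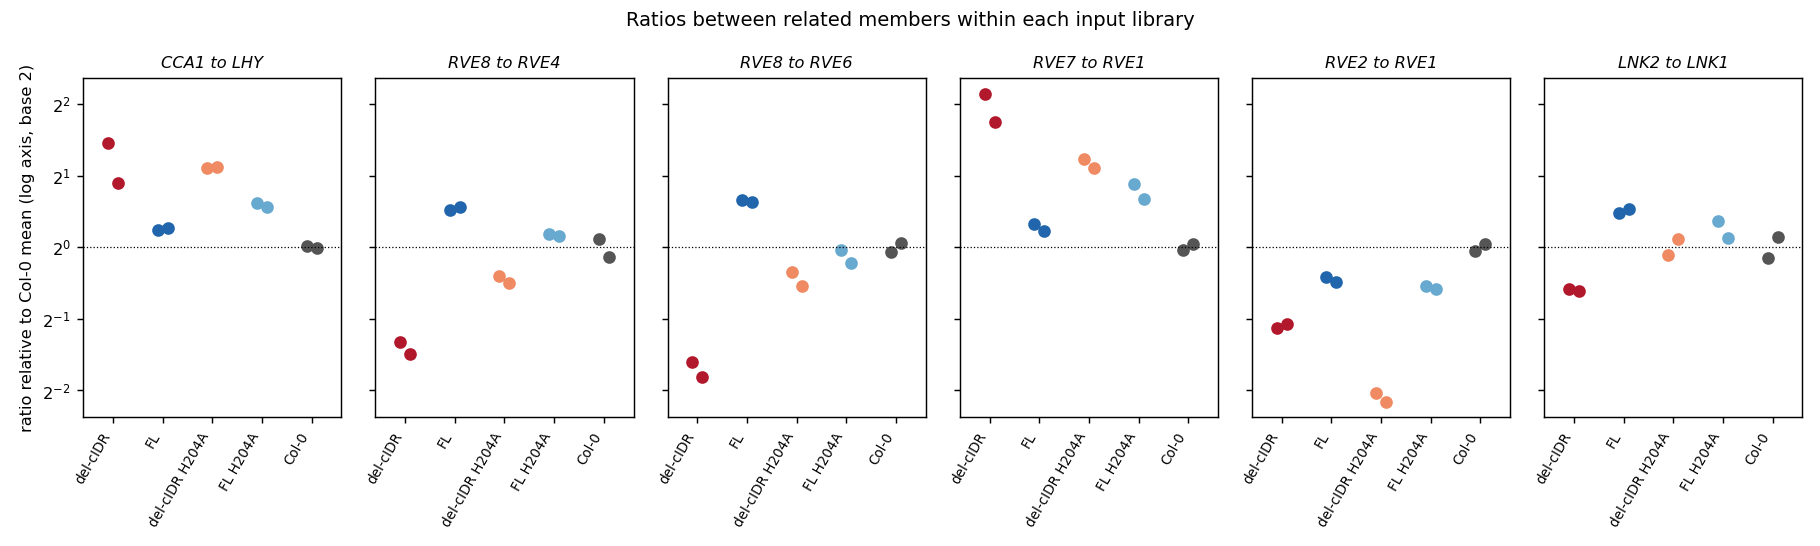
Ratio of related genes within each input library, divided by the mean ratio of the 2 Col-0 libraries (log axes), by genotype. Points are libraries; the ratio of CCA1 to LHY and that of RVE7 to RVE1 lie above 1 in all 8 transgenic libraries, and RVE2 to RVE1 below 1 in all 8.

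As a description of which members moved alike, the root mean square difference between their log2 values, each centred on its own mean over the 10 libraries, was taken for every pair. RVE4 and RVE6 were closest (0.19), followed by LHY and RVE8 (0.26), RVE6 and RVE7 (0.28), RVE4 and RVE7 (0.34) and CCA1 and LNK2 (0.35). RVE2 and LNK1 were farthest apart (1.34). The same measure against 15297 other features placed IAA28, an auxin response repressor, nearest to the mean pattern of CCA1 and LHY (0.27, where the pattern itself had an SD of 0.70). The other genes among the 8 nearest were ACA1, alpha carbonic anhydrase (0.29), AT1G64500 (0.31) and G3Pp1 (0.33), and the rest were transposable elements. IAA28 had 73.9 and 70.0 in del-cIDR, 196 and 212 in FL, 95.9 and 97.8 in del-cIDR H204A, 106 and 129 in FL H204A, and 113 and 124 in Col-0. Nearest to the mean of RVE4, RVE6 and RVE8 was SR45a, a splicing regulator (0.06, pattern SD 0.30). RVE8 itself lay 0.65 from RVE4 and 0.75 from RVE6, so this mean joins members that did not move alike. For the mean of LNK1 and LNK2 the nearest was AT5G10340 (0.11), followed by RIPK, a protein kinase (0.13, pattern SD 0.58). All points share the same 10 libraries and their scaling.

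The partners of these genes in the clock were read from lists of pseudo-response regulators, evening clock genes, evening outputs, morning outputs, upstream cofactors, CBF genes and RVE1 outputs. In del-cIDR H204A, 6 of 6 evening outputs were lower than Col-0 (median -1.29), and 5 of 9 evening clock genes were lower and 1 higher (median -0.88). The median over all features was 0.31, with 7.84% of them called lower and 32.4% higher. TOC1, the evening pseudo-response regulator that represses CCA1 and LHY, had 1376 and 1321 in del-cIDR H204A, against 4390 and 4406 in Col-0 (-1.70). LUX, the DNA-binding subunit of the evening complex, changed by -1.82, and COR27, a clock regulator of the evening, had 141 and 134 in del-cIDR H204A and 1086 and 1097 in Col-0 (-2.93). The other lines did not share the low TOC1 level: it was 4197 and 4212 in del-cIDR, 4144 and 4143 in FL, and 4201 and 4282 in FL H204A, with no called change on the deposited scale, and with centred changes of -0.68, -0.93 and -0.35 that were called. After centring, 6 of 9 evening clock genes were called lower in del-cIDR, 7 in FL, 8 in del-cIDR H204A and 4 in FL H204A. The shares of all features called lower were 21.1%, 38.9%, 24.7% and 17.8% in the same order. In each line the genome too was called lower more often than higher on that scale.

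In del-cIDR, the line with the lowest CCA1 and LHY, evening and midday genes divided. PRR5, a repressor of CCA1 and LHY, had 2988 and 3151 in del-cIDR and 1073 and 1149 in Col-0 (1.46). GI, a clock and flowering-time protein, had 2816 and 2940 in del-cIDR and 1121 and 1148 in Col-0 (1.34), and FKF1, a blue-light receptor of the flowering pathway, changed by 1.47. LUX (-0.12) and TOC1 (-0.06) did not pass on the deposited scale and were lower after centring (-0.74 and -0.68). In all, 5 of 9 evening clock genes were higher and ELF3 lower (-0.30), beside 65.5% of all features called higher and 1.85% lower. In FL 4 of 9 were higher (median 0.06), beside 75.5% of all features. The counts of higher genes in del-cIDR and FL thus did not exceed the share of the genome. In FL H204A 2 were higher and 1 lower (median 0.12), beside 16.9% and 3.12% of all features. The medians over all features were 0.67 in FL and 0.22 in FL H204A.

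PRR9, the earliest pseudo-response regulator of the day, was higher than Col-0 in every line, by 2.10 in del-cIDR, 1.74 in FL, 2.16 in del-cIDR H204A and 1.53 in FL H204A. The cold-response factors CBF1, CBF2 and CBF3, whose daily rhythm depends on CCA1 and LHY, were likewise called higher in all 4 lines, also after centring. Their median change was 2.98 in del-cIDR, 2.35 in FL, 2.61 in del-cIDR H204A and 1.78 in FL H204A. CBF3 had 212 and 244 in del-cIDR, 106 and 95.5 in FL, 116 and 128 in del-cIDR H204A, 49.5 and 51.1 in FL H204A, and 15.4 and 13.0 in Col-0. The order of the CBF levels over the genotypes was not that of CCA1 or LHY.

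Genes placed under RVE1 were also read, beside 65.5%, 75.5%, 32.4% and 16.9% of all features called higher in del-cIDR, FL, del-cIDR H204A and FL H204A. YUC8, the auxin synthesis gene, was higher by 1.25 in del-cIDR, 0.88 in FL, 0.77 in del-cIDR H204A and 0.83 in FL H204A, and PORA, a chlorophyll synthesis enzyme of dark-grown seedlings, by 2.29, 1.01, 2.06 and 0.58 in the same order. The list also held DOG1 and GA3OX2. Of its 4 genes, 4 were higher in del-cIDR, 4 in FL, 3 in del-cIDR H204A and 3 in FL H204A. After centring 2 were higher in each line, beside 8.13%, 15.7%, 11.2% and 4.99% of all features in the same order. The centred values of YUC8 (0.04) and PORA (0.17) in FL and of PORA in FL H204A (0.29) were not called. In FL the genes called higher after centring were DOG1 (0.39) and GA3OX2 (1.03). A shared direction under RVE1 was not assumed for the 4 genes, so these counts do not measure RVE1 activity. Among 6 morning outputs, 3 were higher in del-cIDR, 5 in FL, 4 in del-cIDR H204A and 3 in FL H204A. The counts in del-cIDR and FL stand close to the share over all features. After centring 3, 4, 1 and 1 were lower, beside 21.1%, 38.9%, 24.7% and 17.8% of all features. The centred counts of the H204A lines do not exceed that share. CDF2, a repressor of flowering, was lower on both scales in del-cIDR (-0.51) and del-cIDR H204A (-0.69). Of 10 upstream cofactors, 4 were higher in del-cIDR, 5 in FL, 1 in del-cIDR H204A and 1 in FL H204A. In the same order 2, 1, 4 and 1 were lower, beside 1.85%, 1.47%, 7.84% and 3.12% of all features. After centring 6, 9, 9 and 5 were lower, beside the same 21.1%, 38.9%, 24.7% and 17.8% of all features. JMJD5, an evening-phased histone demethylase, was lower in all 4 lines (-1.39, -0.44, -3.03 and -0.38).

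In del-cIDR against del-cIDR H204A the evening genes were higher and the dawn repressors lower. For TOC1, LUX and COR27 the gap lay in the low levels of del-cIDR H204A given above, since the del-cIDR values against Col-0 were -0.06, -0.12 and -0.22. In this comparison 8 of 9 evening clock genes and 6 of 6 evening outputs were higher (medians 1.24 and 1.54, against 0.27 over all features), as were 4 of 5 pseudo-response regulators. After centring the counts were 6 of 9, 5 of 6 and 3 of 5. The share of all features called higher was 28.7%, and 8.39% after centring. In FL against FL H204A, 3 of 9 evening clock genes were higher on the deposited scale but 8 were lower after centring (medians 0.13 and -0.41, against 0.43 over all features before centring). Of 6 evening outputs 2 were higher and 2 lower, and 5 were lower after centring. Of all features 58.1% were called higher and 0.751% lower in this comparison, and 25.8% lower after centring. The active against H204A change was called greater in del-cIDR than in FL for 6 of 9 evening clock genes (median difference 1.17). The same held for 5 of 6 evening outputs (median 1.42) and 3 of 5 pseudo-response regulators (median 1.19). The median difference over all features was -0.19, and 6.15% of them had a change called greater in del-cIDR. The difference was 1.67 for TOC1 (SE 0.06), 2.26 for FKF1 and 1.17 for GI, opposite in sign to the -1.97 of CCA1 and -2.32 of LHY.

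**Figure D5:**
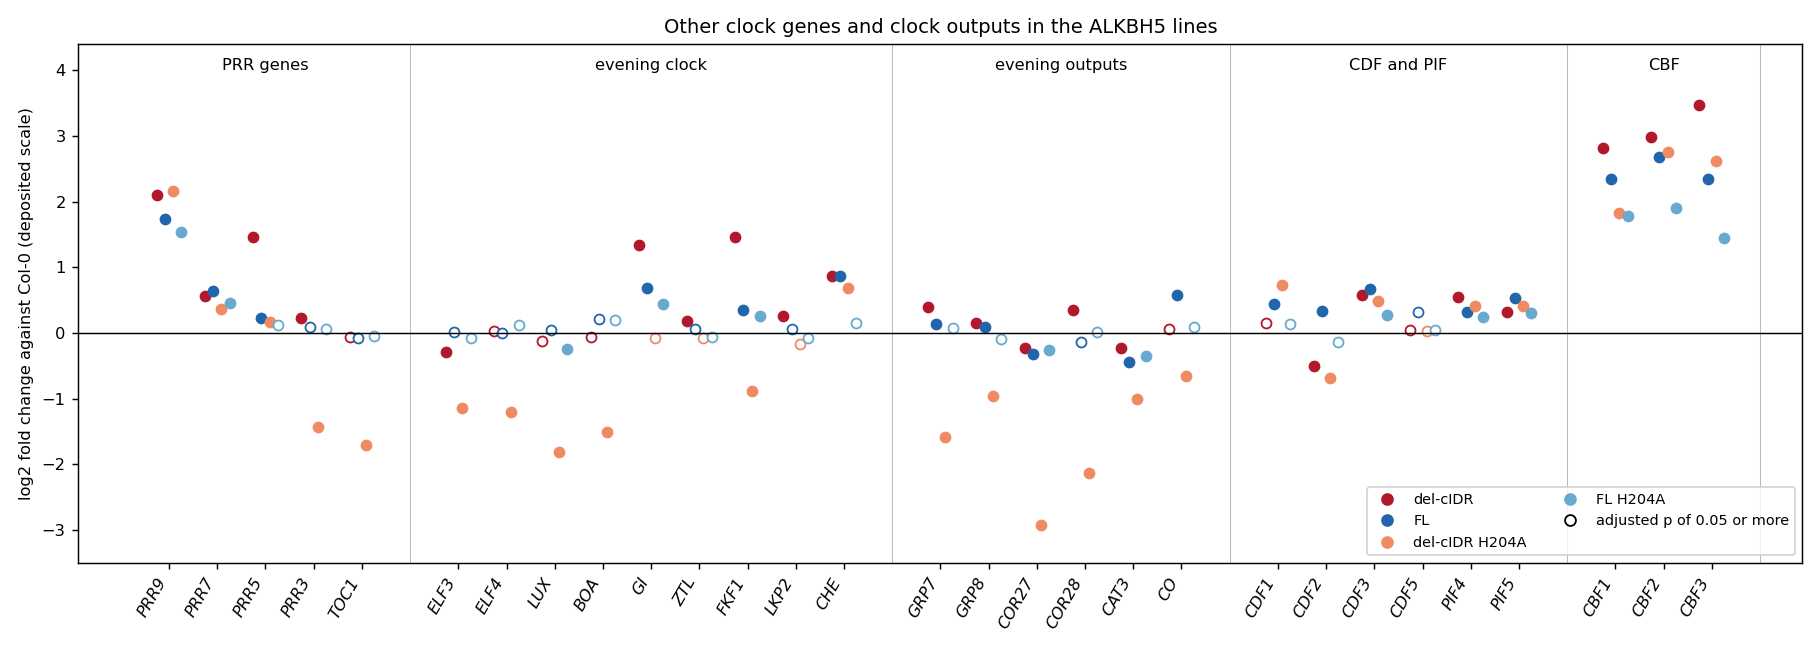
Log2 fold change against Col-0 on the deposited scale (vertical axis) of genes of 5 clock lists in the 4 lines; open points did not pass the test. TOC1, LUX and COR27 lie far below 0 in del-cIDR H204A alone (-1.70, -1.82 and -2.93), and PRR9 and the CBF genes lie above 0 in all 4 lines.

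Of the 10 members, RVE4 was the one with a peak among the 2291 m6A peaks of the deposited table, on chromosome 5 at 651684 to 651888 (TAIR10, positions as deposited). Its m6A ratio was 4.10 and 4.21 in del-cIDR, 5.29 and 6.57 in FL, 1.62 and 3.76 in del-cIDR H204A, 2.78 and 3.32 in FL H204A, and 7.85 and 7.12 in Col-0. Col-0 was highest, and the active lines lay above their H204A forms without overlap. The median of all peaks moved too, and differed between libraries of a genotype. Divided by that median, the RVE4 peak was at 1.56 and 2.52 in del-cIDR, 2.38 and 1.42 in FL, 0.645 and 0.823 in del-cIDR H204A, 0.934 and 0.916 in FL H204A, and 1.19 and 1.01 in Col-0. On that scale both active lines were above Col-0 and both H204A lines below it. These values come from 1 peak and are a description without a test.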

How the data were processed

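Seedling RNA bound to chromatin was profiled by MeRIP-seq in 5 genotypes, with 2 input and 2 immunoprecipitated libraries each, grouped by the genotype in the labels. Per the submitters' processing notes, which give no versions, the tools included HISAT2 and featureCounts as well as MACS2 and bedtools, with fastp, SAMtools and Picard, and the build was TAIR10. The expression table holds a deposited signal per feature, which the authors appear to have scaled to ERCC RNA, whose sums are nearly equal in all libraries. How it was computed is not given in the sources used here, whole reads could not be recovered, and depth is unknown, so no counting interval is given. The m6A table holds a deposited ratio per peak, made by the authors from the immunoprecipitated libraries, with the denominator not given in the sources used here.

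After 92 spike-in rows were dropped, values were analysed as log2(signal + 6.94), with a pseudocount set at percentile 5 of the values above 0. A minimum of this level in 2 libraries removed 0 of 30613 features. limma (3.58.1, R 4.3.3) fitted 5 genotype means to the 10 input libraries with prior variances that follow the mean signal and tested 8 contrasts, two-sided, with Benjamini-Hochberg adjustment over all features. The procedure was tested on simulated data. The alternatives were other pseudocounts and filters, median-centring, no variance trend, a replicate block and leaving out each library.

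The members and the gene lists were chosen with earlier results of these data known. Of each list outside the family, the named genes came from the 4 with the smallest p against Col-0. The likeness measure used features whose mean reached that of the median feature. Gene names and overlaps came from a RefSeq gene table of TAIR10.1, which matched all 58 listed genes and whose coordinates were not used in print. Promoter and protein sequences were not analysed here. Plots were made in Python 3.11.15 (matplotlib 3.10.9).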

Additional observations from a re-analysis of the deposited data

Results flagged for a closer look

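For 6 of the 10 members the change of the active against the H204A form differed between del-cIDR and FL by the limma test of the difference itself. The differences (del-cIDR change minus FL change, log2 scale) were -1.97 for CCA1, -2.32 for LHY, -1.46 for RVE8, -0.81 for RVE1, -0.83 for LNK1 and -1.71 for LNK2. In each of these the change was negative in del-cIDR and positive in FL on the deposited scale. After median-centring the FL change of RVE1 (-0.05) and LNK1 (-0.15) was negative as well, while the difference between the changes was still called. Over all features 13.9% had a called negative difference. No explanation was tested.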

How the results depend on the processing

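The deposited scaling mattered most. After each library was median-centred, 4 members were called in FL against FL H204A, where 8 were called on the deposited scale, and 15 of 80 member values changed sign. Against Col-0 these were RVE4 in del-cIDR (-0.39), FL (-0.37) and FL H204A (-0.29), RVE6 in del-cIDR (-0.11) and FL (-0.48), RVE8 in FL H204A (-0.12), RVE1 in FL (-0.62), RVE7 in FL (-0.37) and LNK2 in del-cIDR (-0.23). In FL against FL H204A they were RVE4 (-0.084), RVE6 (-0.48), RVE1 (-0.055), RVE7 (-0.55) and LNK1 (-0.15), and in the difference between the active against H204A changes RVE4 (0.13). The cause was not tested. With a pseudocount 4 times larger the difference for RVE2 was -0.0069. With a pseudocount of 1 and with no filter all 80 values kept their direction and call, and a filter at the median feature ended 1 call. Without a variance trend 10 calls were lost. These were CCA1 in FL H204A (limma adjusted p = 0.0763), RVE4 in del-cIDR (0.0749), and RVE6 (0.0692), RVE1 (0.166) and RVE2 (0.187) in FL, all against Col-0. The others were RVE4 (0.0722), RVE1 (0.134) and LNK1 (0.0634) in del-cIDR against del-cIDR H204A, and RVE4 (0.102) and LNK1 (0.0867) in del-cIDR against FL. Over all features, without the trend, 2819 were called in FL H204A against Col-0 (6128 with the trend), 6202 in del-cIDR against FL (9339) and 2706 in the difference between the active against H204A changes (6146). Centring left 10164 features called in FL against FL H204A (18020 before), 8946 in del-cIDR against Col-0 (20621) and 4708 in del-cIDR against del-cIDR H204A (9626). The filter at the median feature, which tests fewer features, left 11305 in FL against Col-0 (23576), 9696 in FL against FL H204A and 11723 in del-cIDR against Col-0.

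Same-numbered libraries had correlations of their deviations from -0.043 to 0.10 over pairs of genotypes, so the numbers were not shown to pair them. With the replicate number as a block, 1 of the 80 member calls changed: RVE1 in FL H204A against Col-0 passed at -0.27 (limma adjusted p = 0.0471). Leaving out each library in turn gave 756 unchanged outcomes, 27 calls lost, 6 gained and 11 changes of sign. The signs changed among values that had not passed: RVE4 in del-cIDR H204A (-0.14 to 0.018) and FL H204A (-0.025 to 0.037) against Col-0, RVE6 in del-cIDR H204A against Col-0 (-0.23 to 0.12) and FL against FL H204A (-0.044 to 0.17), RVE7 in FL against FL H204A (-0.017 to 0.018), and the difference for RVE2 (-0.15 to 0.23). The lone library of a genotype was then assumed to vary like the others. Each of the 10 libraries was left out for every member and contrast. Leaving out a library of a genotype outside the contrast does not alter the fold change. The unchanged outcomes therefore do not all bear on the libraries of the contrast itself. Over all features, calls in FL H204A against Col-0 numbered 3811 without FL H204A replicate 2 and 3497 without Col-0 replicate 2. In FL against FL H204A they numbered 11897 without FL replicate 2 and 9346 without FL H204A replicate 1, and in del-cIDR against FL 5839, 6112 and 5754 without del-cIDR replicate 1, FL replicate 1 and FL replicate 2. With 2 libraries per genotype and unknown depth, small changes such as those of RVE4 and RVE6 are the least firm.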
